A study of Mus musculus with 11 samples.

Results

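The collagen genes are the genes whose platform symbol is Col, a type number, the letter a and a chain number, such as Col1a1 for the alpha 1 chain of type I collagen. By that rule 42 genes were found, each with 1 transcript cluster (a set of probes summarized to 1 value per array), among 22206 clusters tested, of which 19572 had a gene symbol. The rule used the symbols and no measured value, but it and the gene lists below were set with earlier results of these data known. They were followed in liver sinusoidal endothelial cells, the fenestrated cells that line the capillaries of the liver, on 11 Mouse Clariom S arrays of total RNA. The 6 wild type arrays came from mice with floxed Atg5 alleles (Atg5lox/lox) and no Cre. The 5 knockout arrays, titled autophagy deficient, came from mice with the same floxed alleles and VE-cadherin-Cre, a recombinase driven by a promoter that is active in endothelial cells of all organs. Mice of both genotypes began a high fat diet at 8 weeks of age and stayed on it for 2 weeks, so no array without the diet was compared. Atg5 is needed to form autophagosomes, and fibrosis is 1 of the themes in the study's title. The titles number the arrays as biological replicates but do not say whether each is 1 animal or a pool. The p-values rest on the spread between these arrays, and how far they hold for other animals is not known.

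Collagens are the proteins that give connective tissue its tensile strength. Each molecule is a triple helix of 3 chains, which may be the same or come from different genes, so the genes of one type are often expressed together. Fibrillar collagens build the banded fibres of scar tissue, network collagens such as type IV form the basement membrane under endothelium, and others link, anchor or cap these structures. In the liver, stellate cells and portal fibroblasts are the known main sources of fibrillar collagen, while sinusoidal endothelium is known for type IV collagen and for taking up collagen fragments from the blood.

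The promoter windows shown here are those of the 2 pairs of collagens whose values went together most closely among 22 chosen pairs. Other pairs of the 42 genes were not compared, and the results below return to these 2 pairs. RefSeq windows on build GRCm38.p6, which span 250 bases before to 50 bases after an annotated start, were matched to 34 of the 42 genes by symbol. Col4a1 and Col4a2 encode the 2 chains of the common type IV collagen and are transcribed in opposite directions from neighbouring starts. The Col4a1 window is chr8:11312777-11313076 on the minus strand, and the Col4a2 window is chr8:11312555-11312854 on the plus strand. The capitals mark the 78 bases that both windows hold, each written 5′ to 3′ on its own strand, so that one run is the reverse complement of the other.
Col4a1: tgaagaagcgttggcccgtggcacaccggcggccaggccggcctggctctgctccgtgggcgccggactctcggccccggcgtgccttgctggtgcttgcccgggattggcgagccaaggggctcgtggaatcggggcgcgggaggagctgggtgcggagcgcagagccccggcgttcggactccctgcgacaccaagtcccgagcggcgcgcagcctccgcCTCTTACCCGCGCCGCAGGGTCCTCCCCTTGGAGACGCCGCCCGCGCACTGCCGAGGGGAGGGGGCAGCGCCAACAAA
Col4a2: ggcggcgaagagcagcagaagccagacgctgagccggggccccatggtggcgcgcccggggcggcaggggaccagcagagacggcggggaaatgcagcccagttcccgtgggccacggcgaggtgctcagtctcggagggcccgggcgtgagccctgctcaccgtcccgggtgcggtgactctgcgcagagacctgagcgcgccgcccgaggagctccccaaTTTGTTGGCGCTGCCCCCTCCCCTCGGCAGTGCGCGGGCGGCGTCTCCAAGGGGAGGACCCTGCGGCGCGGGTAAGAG
Col1a2 and Col3a1 encode chains of the interstitial collagens I and III and lie on different chromosomes, with windows at chr6:4505368-4505667 and chr1:45311288-45311587, both on the plus strand. The capitals mark 3 motifs searched on both strands, namely the box CCAAT, the box TATAAA as read in textbook TATA promoters, and the GC box core, which reads GGGCGG.
Col1a2: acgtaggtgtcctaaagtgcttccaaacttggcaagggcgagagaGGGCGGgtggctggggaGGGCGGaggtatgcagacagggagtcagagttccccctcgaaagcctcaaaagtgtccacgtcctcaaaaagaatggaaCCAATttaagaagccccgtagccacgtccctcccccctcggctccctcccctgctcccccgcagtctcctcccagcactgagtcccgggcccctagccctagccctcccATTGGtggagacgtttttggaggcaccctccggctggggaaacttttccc
Col3a1: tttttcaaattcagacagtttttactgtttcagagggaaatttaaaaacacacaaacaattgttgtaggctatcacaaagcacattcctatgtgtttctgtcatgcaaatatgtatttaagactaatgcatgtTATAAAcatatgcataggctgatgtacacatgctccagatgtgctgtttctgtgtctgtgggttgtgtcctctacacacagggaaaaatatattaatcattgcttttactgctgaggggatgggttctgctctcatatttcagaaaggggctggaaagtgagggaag
The Col1a2 window held 2 CCAAT motifs and 2 GGGCGG motifs, and the Col3a1 window held 1 TATAAA. The 4 windows also differed in base composition, with a GC content of 74.0% for Col4a1, 73.7% for Col4a2, 61.0% for Col1a2 and 37.7% for Col3a1. Over the 37 windows of the 34 matched collagens, CCAAT occurred in 12 (32.4%), against 37.4% of all 32851 windows. TATAAA occurred in 5 (13.5%), against 13.6% of all windows. GGGCGG occurred in 22 (59.5%), against 35.7% of all windows. A match is only a description of the letters in the window.

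The arrays had medians between 6.61 and 6.75 on the log2 scale. Atg5, the targeted gene, ran from 7.38 to 7.59 with a median of 7.54 in wild type and read 7.48, 7.57, 7.54, 7.90 and 7.53 in knockout, with means of 7.50 ± 0.09 (SD, n = 6) and 7.60 ± 0.17 (SD, n = 5). The position of its probes against the floxed part was not given, so the level is no check of the genotype and directions follow the labels. The sinusoidal label was borne out by its markers, 16 of 17 of which lay above the brightest of 23 antigenomic background rows (probes that match no mouse transcript) in all 11 arrays. In 4 arrays (wild type 1 and 6, knockout 3 and 4) the mean of the intron control probes was 5.75 to 5.96, against 5.05 to 5.38 in the other 7. The same 4 arrays had a mean of 7.25 to 7.64 over the 8 antigenomic rows of highest GC content, against 7.61 to 8.12. No 2 arrays held identical values.

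Most collagens lay in the range of the background probes. The mean of the antigenomic rows was 4.67 to 5.17 by array and the brightest row read 7.90 to 8.78. Of the 42 collagens, 39 lay above their own array's antigenomic mean in all 11 arrays. The exceptions were Col10a1 and Col24a1, below that mean in all 11, and Col6a5, above it in 9. Only Col4a1 and Col4a2, the 2 chains of the basement membrane network, lay above the brightest antigenomic row in all 11 arrays. They are 4.76% of the collagens, against 15.6% of all clusters tested. A further 9 collagens passed that row in some arrays: Col13a1 in 8, Col1a2, Col3a1 and Col9a3 in 3 each, Col1a1, Col8a2, Col11a2 and Col22a1 in 2 each, and Col14a1 in 1. The other 31 passed it in none, so a small difference in these genes is measured on a weak signal.

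No collagen met the study's own rule, a fold of 1.5 or more together with an unadjusted p up to 0.05, which 1.03% of all clusters met in the limma fit of knockout against wild type. An unadjusted p of at most 0.05 was reached by 3 collagens, all lower in knockout, namely Col10a1, Col22a1 and Col28a1. Over all clusters 6.39% reached it, 3.78% as lower and 2.61% as higher. The count was 0 without knockout 1, 1 without wild type 2, 4, 5 or 6 or knockout 2 or 3, and 7 without knockout 5. The call without wild type 5 was Col1a2 as higher (a difference of 0.48), and none of the 3 lower genes passed there. Over all clusters 4.05% to 7.25% reached that p with 1 array left out, with 4.56% without knockout 1, 5.72% without wild type 5 and 7.22% without knockout 5. After Benjamini-Hochberg adjustment over all clusters in limma, 0 collagens passed, with adjusted p from 0.765 to 0.999, and 0% of all clusters did. For 0 collagens did all knockout arrays lie on one side of all wild type arrays, which held for 0.18% of all clusters as higher and 0.293% as lower. The 42 log2 differences, each the knockout mean minus the wild type mean, ran from -0.32 to 0.58 with a median of -0.11, where the median of all clusters was -0.02. Above 0 lay 11 of the 42 (26.2%), against 46% of all clusters. Repeated quantile normalization moved this count to 14 and median centring to 15. The 95% interval of the difference stayed within 1.5-fold in both directions for 34 of the 42 (81%), against 75.8% of all clusters. It reached 1.5-fold for Col1a2, Col3a1, Col4a6, Col5a1, Col6a5, Col14a1, Col15a1 and Col22a1. For all of these but Col22a1 the interval also held 0. With this number of arrays a change of that size could not be told from none in those genes. The unadjusted interval of Col22a1, -0.61 to -0.02, reached 1.5-fold only as lower and left out 0.

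**Figure D1:**
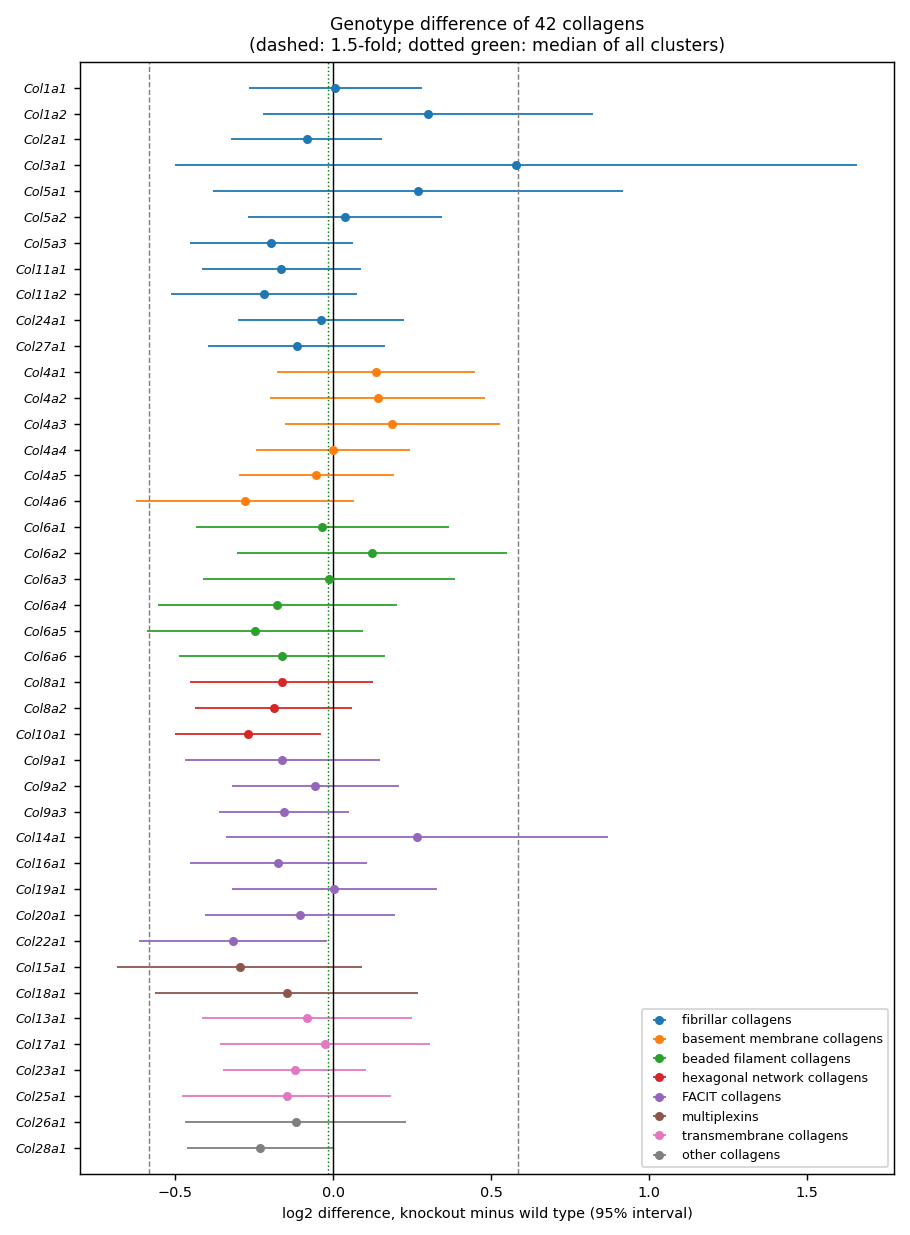
Difference between genotypes (knockout minus wild type, log2) for the 42 collagens, grouped by structural class. Points are differences from the limma fit over 6 wild type and 5 knockout arrays, bars are 95% intervals, the dashed lines mark 1.5-fold and the dotted line the median of all 22206 clusters. Col3a1 has the highest point (0.58) and the widest bar, and 31 of the 42 points lie below 0.

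Among the fibrillar collagens, which assemble into the banded fibres, 5 of 11 had a positive and 6 a negative difference (median -0.04), and 0 reached an unadjusted p of 0.05. Col3a1, the chain of type III collagen found with type I in interstitial fibres, had the largest difference of all 42. Its log2 level ran from 6.26 to 9.02 over the wild type arrays with a median of 7.62, and was 7.90, 9.37, 6.90, 8.37 and 7.69 in knockout arrays 1 to 5. The groups overlapped over most of their range, with wild type 5 and knockout 2 high and wild type 1, wild type 6 and knockout 3 low. The means were 7.47 ± 1.04 (SD, n = 6) and 8.05 ± 0.91 (SD, n = 5), a difference of 0.58 (SE 0.50, 95% interval -0.50 to 1.66). As a fold this is 1.49, with an interval from 0.707 to 3.16, and the exact permutation p over 462 splits of the arrays was 0.346. Over the 11 arrays Col3a1 spanned 3.11 on the log2 scale, or 8.63-fold, and its spread within genotypes was wider than that of 99.7% of all clusters. The difference therefore did not exceed the spread between arrays, and leaving out 1 array at a time moved it between 0.25 and 0.89. With the intron control mean as a covariate the difference of Col3a1 was 0.67 and met the study's rule. Its unadjusted limma p was 0.0429 and its adjusted p 0.468, and 1.26% of all clusters met the rule in that fit.

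Type I collagen, the most abundant collagen of scar tissue, is made of chains from Col1a1 and Col1a2. Col1a2 ran from 7.31 to 8.70 in wild type with a median of 7.79 and read 8.00, 8.69, 7.59, 8.18 and 8.04 in knockout, with wild type 5 and knockout 2 again the highest. The means were 7.80 ± 0.50 (SD, n = 6) and 8.10 ± 0.40 (SD, n = 5), and the interval of the difference ran from -0.22 to 0.82 (exact permutation p = 0.318). The difference of 0.30 was 0.15 without knockout 2 and 0.48 without wild type 5. Col1a1 ran from 7.80 to 8.48 with a median of 8.09 in wild type and read 8.03, 8.20, 7.91, 8.29 and 8.15 in knockout. All knockout values of Col1a1 lay inside the wild type range. Its interval ran from -0.27 to 0.28, and a change of 1.5-fold in either direction lay outside it. The 2 chains thus differed in precision: within genotypes the spread of Col1a1 was larger than that of 30.7% of all clusters and that of Col1a2 larger than that of 88.7%.

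Type V collagen is the minor fibrillar collagen around which type I fibres start to form. Col5a1, its alpha 1 chain, ran from 5.10 to 6.50 in wild type with a median of 5.68 and read 5.75, 6.83, 5.31, 5.79 and 6.36 in knockout, a difference of 0.27 (SE 0.30, exact permutation p = 0.448). It was 0.06 without knockout 2 and 0.44 without knockout 3. Its groups overlapped, and its spread was larger than that of 95.1% of all clusters. Col5a2 differed by 0.04 (SE 0.14) and Col5a3 by -0.20 (SE 0.12, exact permutation p = 0.106). Both stayed within 1.5-fold in their 95% intervals. The other 5 fibrillar genes, Col2a1, Col11a1, Col11a2, Col24a1 and Col27a1, which are known mainly from cartilage and other skeletal tissue, lay between -0.22 and -0.04, all with the interval inside 1.5-fold.

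**Figure D2:**
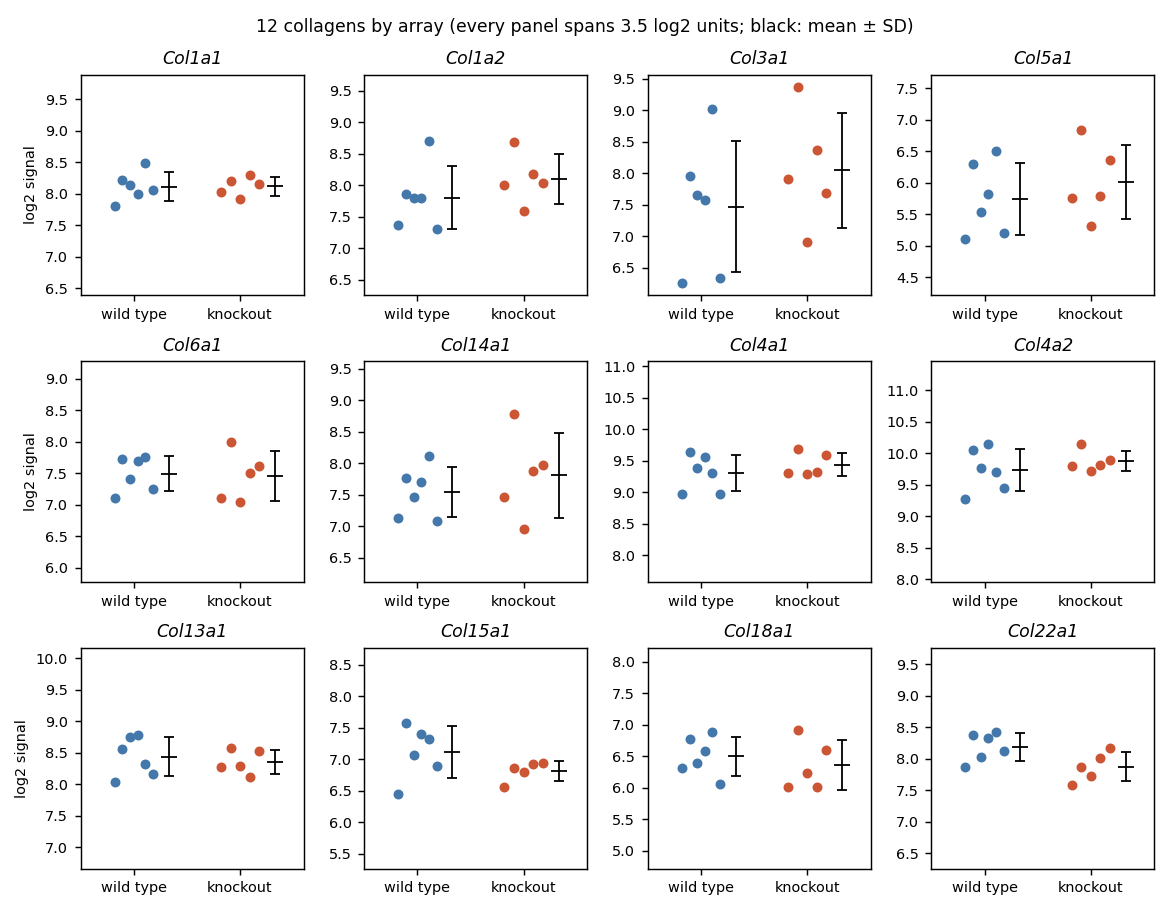
Log2 level of 12 collagens in each array, with wild type in blue and knockout in orange and the mean ± SD of each genotype in black. Every panel spans 3.5 log2 units, so spreads can be compared between panels but levels cannot. Col3a1 covers 6.26 to 9.37, Col1a1 only 7.80 to 8.48, and in all 12 panels the genotypes overlap.

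The basement membrane chains Col4a1 and Col4a2, the only collagens above all background rows in every array, did not differ between genotypes beyond the spread between arrays. The 6 genes of type IV had differences from -0.28 to 0.19 with a median of 0.07, 3 above and 3 below 0. Col4a1 ran from 8.97 to 9.63 in wild type with a median of 9.35 and read 9.31, 9.68, 9.28, 9.32 and 9.59 in knockout. Col4a2 ran from 9.27 to 10.14 with a median of 9.74 and read 9.79, 10.14, 9.72, 9.81 and 9.89. In both genes wild type 1 was low, the groups overlapped and the knockout arrays lay closer together than the wild type arrays. The difference was 0.13 (SE 0.15, interval -0.18 to 0.45) for Col4a1 and 0.14 (SE 0.16, interval -0.20 to 0.48) for Col4a2, with exact permutation p of 0.359 and 0.398. A change of 1.5-fold lay outside both intervals.

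The other type IV chains form the more specialised networks of kidney, lung and other basement membranes. Col4a3 ran from 5.71 to 6.35 in wild type and read 5.92, 6.43, 6.15, 5.95 and 6.59 in knockout, a difference of 0.19 (SE 0.16). Col4a6 ran from 6.55 to 7.23 with a median of 6.89 and read 6.21, 6.66, 6.50, 6.68 and 7.01, a difference of -0.28 (SE 0.16, exact permutation p = 0.136). Col4a4 (0.00) and Col4a5 (-0.05) had the smallest differences of the type. None of the 4 passed the brightest background row in any array.

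The multiplexins Col15a1 and Col18a1 sit in vascular basement membranes, and the end fragment of the Col18a1 product is endostatin, an inhibitor of vessel growth. Col15a1 ran from 6.45 to 7.58 in wild type with a median of 7.20 and read 6.56, 6.87, 6.80, 6.93 and 6.95 in knockout. All 5 knockout arrays lay below the wild type mean of 7.12 ± 0.41 (SD, n = 6), and all lay inside the wild type range. The difference was -0.30 (SE 0.18, interval -0.68 to 0.09) at an exact permutation p of 0.160. The unadjusted limma p of Col15a1 came under 0.05 in 4 alternatives: -0.43 without wild type 1, -0.55 without the 4 arrays of high intron control signal, -0.34 with the replicate block and -0.46 with the stellate mean as a covariate. Of all clusters 7%, 7.2%, 7.57% and 12.6% did so in these fits. None of the 4 met the study's rule, and the adjusted limma p stayed between 0.39 and 0.668. Col18a1 ran from 6.06 to 6.89 with a median of 6.49, read 6.01, 6.92, 6.24, 6.01 and 6.60 in knockout, and differed by -0.15 (SE 0.19).

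Type VI collagen forms beaded filaments between the basement membrane and the interstitial matrix. The difference was positive for 1 of its 6 genes and negative for 5 (median -0.10). Col6a1 ran from 7.10 to 7.76 in wild type and read 7.10, 8.00, 7.05, 7.51 and 7.62 in knockout. Col6a2 ran from 5.67 to 6.81 and read 6.38, 6.85, 6.35, 6.43 and 6.53. Col6a3 ran from 6.90 to 7.92 and read 6.93, 7.40, 6.82, 7.24 and 7.34. These 3 chains, which make up the common type VI molecule, differed by -0.04 (SE 0.19), 0.12 (SE 0.20) and -0.01 (SE 0.18), each less than its own standard error. The alternative chains Col6a4, Col6a5 and Col6a6 lay at -0.18, -0.25 and -0.16.

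The FACIT collagens sit on the surface of fibrils and link them to other matrix, and 8 of the 10 listed were measured. The difference was positive for 2 of these and negative for 6 (median -0.13). Col14a1, which is known from stellate cells and fibroblasts, ran from 7.09 to 8.12 in wild type with a median of 7.59 and read 7.47, 8.78, 6.96, 7.88 and 7.97 in knockout. Knockout 2 was the highest and knockout 3 the lowest of all 11 arrays, and the difference of 0.26 (SE 0.28, exact permutation p = 0.455) did not exceed this spread. It was 0.02 without knockout 2 and 0.48 without knockout 3. Col22a1, known from tissue junctions such as that of muscle and tendon, ran from 7.86 to 8.42 with a median of 8.22 and read 7.58, 7.86, 7.73, 8.01 and 8.16. It was 1.25-fold lower in knockout, a log2 difference of -0.32 (SE 0.14), with an unadjusted limma p of 0.0384, an adjusted p of 0.765 and an exact permutation p of 0.0541. The remaining FACIT genes were Col9a1, Col9a2, Col9a3, Col16a1, Col19a1 and Col20a1, with differences from -0.17 to 0.00 and none with an unadjusted limma p of 0.05. For Col9a3 (-0.16), whose arrays spread less than those of all but 1.94% of clusters, the exact permutation p was 0.0411. Col7a1, Col12a1 and Col21a1 were not analysed here.

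Col13a1, a transmembrane collagen of cell contacts, passed the brightest background row in 8 arrays, more than any collagen but Col4a1 and Col4a2. It ran from 8.04 to 8.78 in wild type with a median of 8.44 and read 8.27, 8.57, 8.29, 8.11 and 8.53 in knockout, a difference of -0.08 (SE 0.15, exact permutation p = 0.604). The other transmembrane genes, Col17a1, Col23a1 and Col25a1, also lay below 0, between -0.15 and -0.03. All 4 intervals lay inside 1.5-fold.

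The remaining 5 genes all lay below 0. Of the network formers of type VIII and X, Col8a1 and Col8a2 differed by -0.16 and -0.19. Col10a1, the collagen of growth plate cartilage, ran from 4.37 to 4.73 in wild type with a median of 4.54 and read 4.04, 4.32, 4.47, 4.23 and 4.36 in knockout. Its difference of -0.27 (SE 0.11) had an unadjusted limma p of 0.0256, an adjusted p of 0.765 and an exact permutation p of 0.0108, but all 11 values lay below the antigenomic mean of their array, so its level was not above background. Col28a1, known from glial cells of peripheral nerve, ran from 7.73 to 8.15 with a median of 7.86 and read 7.53, 7.54, 7.65, 7.78 and 7.77. Its difference of -0.23 (SE 0.11) had an unadjusted limma p of 0.0482, an adjusted p of 0.765 and an exact permutation p of 0.026, and it passed the brightest background row in no array. Col26a1 differed by -0.12 (SE 0.16).

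The collagens varied together from array to array. Relative to the mean of its own genotype, wild type 1 had 39 of 42 collagens low and wild type 6 had 35, while wild type 2 had 37 high, wild type 4 had 34 and wild type 5 had 33. Among the knockout arrays, knockout 1 had 38 low, knockout 3 had 32 low and knockout 5 had 39 high, and knockout 2 and 4 were mixed with 25 high each. The median deviation ran from -0.24 (wild type 1) to 0.19 (wild type 2), against -0.06 to 0.06 over all clusters. Wild type 1 and 6 and knockout 3 are among the 4 arrays of high intron control signal, and knockout 4 is the other.

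**Figure D3:**
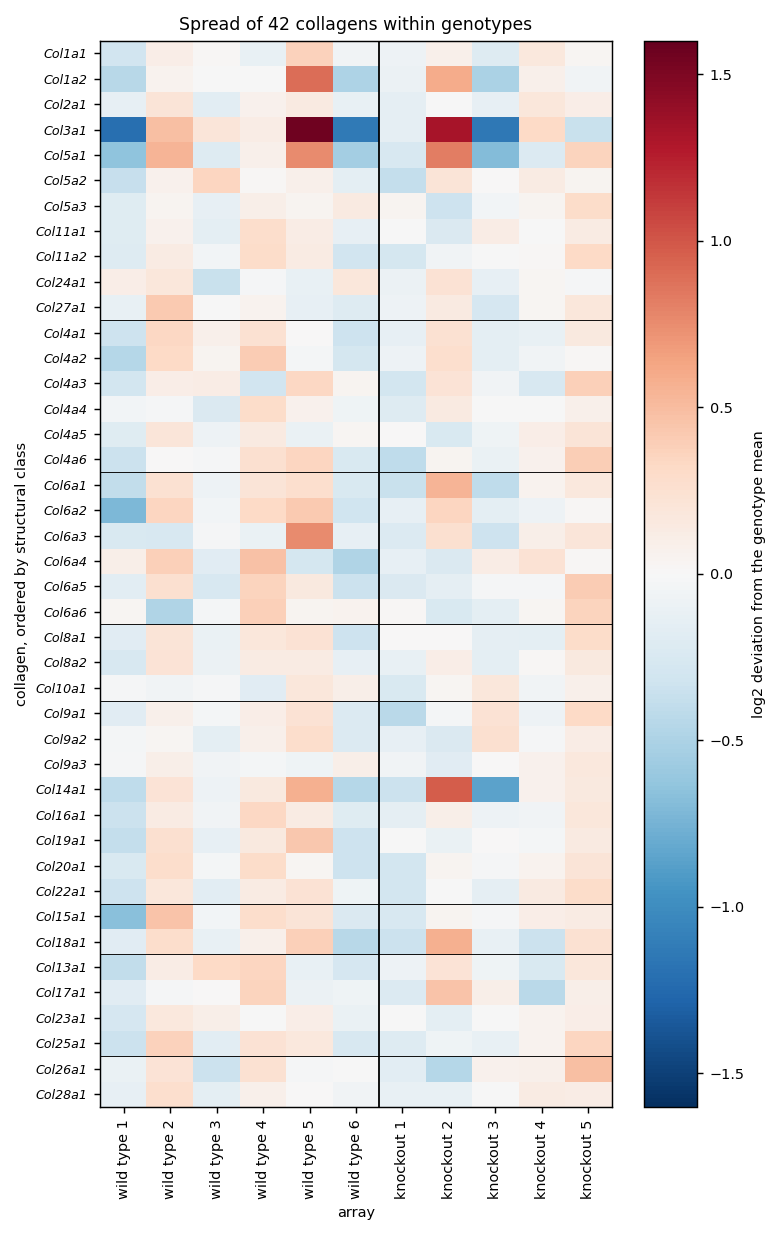
Deviation of each collagen from the mean of its genotype (log2, colour) in each of the 11 arrays (columns), ordered by structural class (rows). Wild type 1 is blue for 39 of 42 collagens and knockout 5 red for 39, and the darkest cells are those of Col3a1 in wild type 1, 5 and 6 and knockout 2 and 3.

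Not every pair of chains of one molecule had a high r across the arrays. Over 22 pairs, with genotype means subtracted, the closest was Col1a2 with Col3a1 across the 11 arrays (Pearson r = 0.97, exact permutation p = 9.3e-05, adjusted over the pairs 0.000849; Spearman rho = 0.95). Leaving out the 2 most distant arrays gave r = 0.98, and over the 7 arrays of low intron control signal it was 0.96. Col1a1 with Col1a2, the chains of 1 molecule, had r = 0.84 (adjusted exact permutation p = 0.0109), which was 0.66 without 2 arrays. Col1a2 and Col3a1 each went with Col14a1 (r = 0.89 and 0.90) and with Col5a1 (0.88 and 0.88). Col5a1 and Col5a2, chains of type V collagen, had r = 0.49 (adjusted exact permutation p = 0.191). Neither gene passed the brightest background row in any array, so this r was measured on weak signals.

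Col4a1 and Col4a2, the other pair whose windows are shown above, had r = 0.95 and rho = 0.98 across the 11 arrays (adjusted exact permutation p = 0.00127). Both genes also followed the intron control mean, as given below. The part of the control signal or of the shared 78 bases in the relation of Col4a1 to Col4a2 was not tested. Without 2 arrays r was 0.92, and over the 7 arrays of low intron control signal it was 0.88 (exact permutation p = 0.0694). The other type IV pairs of neighbouring genes had r = 0.08 for Col4a3 with Col4a4 and 0.37 for Col4a5 with Col4a6. Without the 2 most distant arrays these were 0.52 and 0.59, and their difference from the first pair was not tested. None of the genes in these other pairs passed the brightest background row in any array. Col6a1 with Col6a2 had r = 0.84 and Col8a1 with Col8a2 0.83, with adjusted exact permutation p of 0.000255 and 0.0200. Col6a1, Col6a2 and Col8a1 passed the brightest background row in no array, and Col8a2 passed it in 2. With the antigenomic rows of high GC content, r was 0.85 for Col8a1 and 0.79 for Col8a2 (adjusted exact permutation p of 0.056 and 0.101). The part of background signal in these pairs was not tested. Col3a1 with Col4a1 had r = 0.66 over 11 arrays (adjusted exact permutation p = 0.0677) and 0.06 over the 7 arrays of low intron control signal. The change between these values was not tested.

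**Figure D4:**
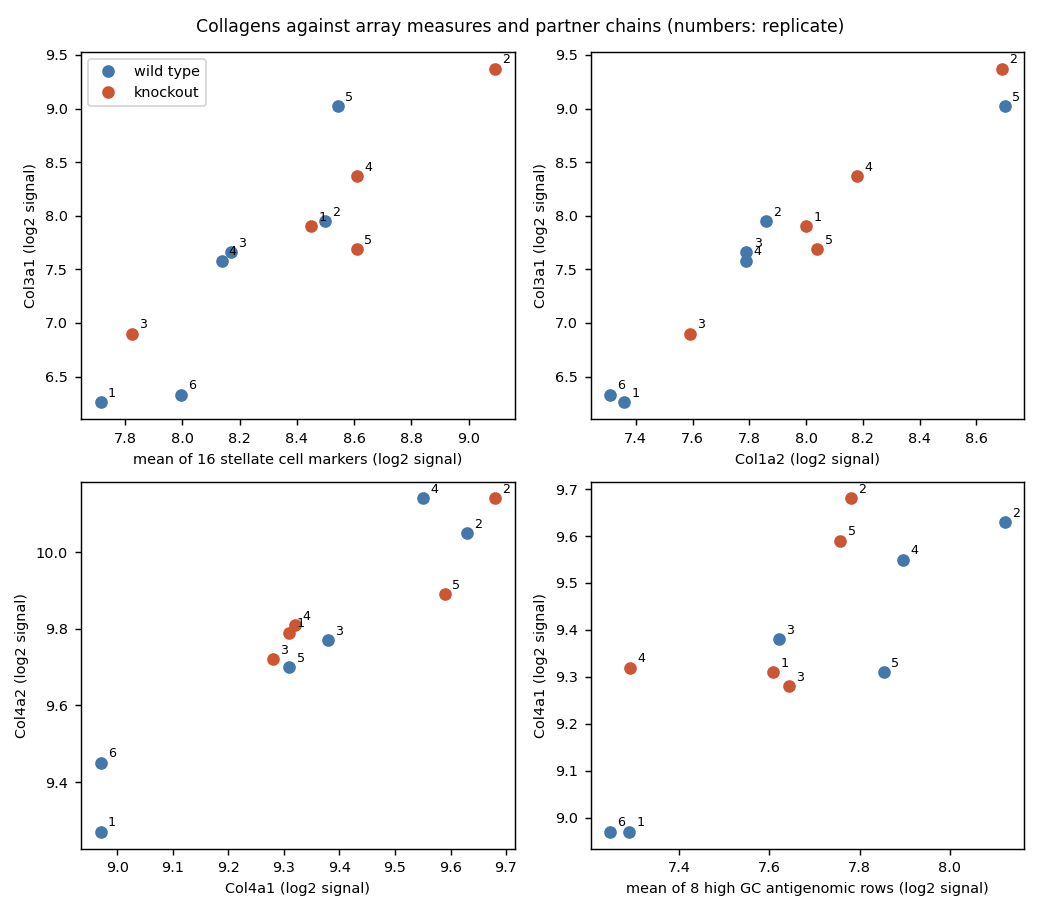
Log2 level of 1 collagen against another measure in the 11 arrays (blue wild type, orange knockout): Col3a1 against the mean of the stellate cell markers, Col3a1 against Col1a2, Col4a2 against Col4a1, and Col4a1 against the mean of the antigenomic rows of high GC content. With genotype means subtracted, Pearson r is 0.90, 0.97, 0.95 and 0.88.

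Some collagens moved with the mean of the stellate cell markers across the arrays. In each of these bulk preparations fewer cells of a type and less RNA per cell cannot be told apart. For the stellate cell, the vitamin A storing pericyte of the sinusoid, 16 of 18 listed markers were measured, all above the antigenomic mean in every array. The difference was positive for 14, negative for 1 and 0.00 for Hgf, and the median was 0.40. None reached an unadjusted p of 0.05, and the smallest p was that of the pericyte gene Rgs5 (0.42, SE 0.20). The mean of the list was 7.71 to 8.54 in wild type and 7.82 to 9.09 in knockout, with wild type 1 and knockout 3 the lowest of their groups and wild type 5 and knockout 2 the highest.

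Across the 11 arrays, with genotype means subtracted, 8 of 42 collagens followed the stellate mean at an exact permutation p adjusted over 252 relations of at most 0.05. They were Col14a1 (r = 0.94), Col5a1 (0.92), Col3a1 (0.90), Col6a1 (0.89), Col1a2 (0.85), Col1a1 (0.80), Col8a2 (0.79) and Col6a2 (0.76), with adjusted exact permutation p of 0.0299 or 0.0396. Their Spearman rho ran from 0.79 to 0.95, and for Col8a2 the adjusted exact permutation p of rho was 0.0851. Without wild type 1 and knockout 2, the most distant arrays, r was 0.92 for Col14a1, 0.81 for Col3a1 and 0.60 for Col6a2, the lowest of the 8. Over the 7 arrays of low intron control signal r was 0.92 for Col14a1, 0.88 for Col3a1 and 0.58 for Col8a2, the lowest. The median r over the 42 collagens was 0.51, against 0.14 over all clusters. How many of all clusters followed this or the other array measures was not counted.

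With the stellate mean as a covariate in the limma fit, the differences of these interstitial genes turned below 0, with Col3a1 at -0.21, Col5a1 at -0.21, Col14a1 at -0.19 and Col1a2 at -0.05. In that fit 1 of the 42 collagens lay above 0, and the median difference was -0.18 for the collagens and -0.06 for all clusters. With the macrophage mean, which lay higher in knockout, Col3a1 turned to -0.64 and Col1a2 to -0.30, with 2 of 42 above 0. The medians there were -0.22 for the collagens and -0.07 for all clusters, against -0.11 and -0.02 with no covariate. The share of all clusters above 0 in the covariate fits was not counted. With the hepatocyte mean, which lay lower in knockout, Col3a1 stood at 1.39, Col1a2 at 0.74 and Col14a1 at 0.70, and all 3 met the study's rule. In that fit 2.58% of all clusters met the rule, against 1.03% with no covariate. The direction of the interstitial collagens between genotypes thus depended on which marker mean was held fixed, and their part in the result was not tested further.

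The other marker means moved with fewer collagens. All 16 measured macrophage markers lay above 0 (median 1.19, list mean 6.95 to 8.32 in wild type and 7.51 to 10.12 in knockout). Of these, 15 met the study's rule as higher, against 0.671% of all clusters. Col14a1, Col5a1, Col1a2 and Col6a2 followed the macrophage mean with r from 0.65 to 0.89. By Spearman rho none of these 4 passed, with adjusted exact permutation p of 0.0863, 0.0685, 0.24 and 0.0685 in that order. All 21 hepatocyte markers lay below 0 (median -0.96, list mean 8.71 to 10.19 and 7.79 to 9.39). Of these, 13 met the study's rule as lower, against 0.356% of all clusters. No marker of either list reached an adjusted limma p of 0.05. At an adjusted exact permutation p of 0.05, 0 collagens followed the hepatocyte mean. The sinusoidal endothelial mean was 11.51 to 11.92 and 11.55 to 11.90, and 0 collagens followed it either, with the highest r for Col13a1 (0.73, adjusted exact permutation p = 0.0861; 0.36 over the 7 arrays). The macrophage and stellate means were themselves related over the arrays (r = 0.81), so their relations to a collagen are not separate.

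Markers of other cell types that a liver preparation can hold were counted as well. Portal fibroblast markers had 3 of 12 above 0 (median -0.10) and list means of 6.28 to 6.89 in wild type and 6.41 to 6.59 in knockout. Vascular smooth muscle markers had 5 of 8 above 0 (median 0.01, list means 6.21 to 6.72 and 6.45 to 6.88). Mesothelial markers had 0 of 6 above 0 (median -0.20, 5.80 to 6.44 and 5.78 to 5.92) and cholangiocyte markers 1 of 5 (median -0.23, 6.33 to 6.92 and 6.18 to 6.67). The markers of continuous and large-vessel endothelium had 8 of 13 above 0 (median 0.05, 7.77 to 8.42 and 8.09 to 8.25). Their part in the collagen values was not tested.

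The basement membrane chains moved with the control probes of the arrays. Col4a1 followed the mean of the antigenomic rows of high GC content (r = 0.88, adjusted exact permutation p = 0.0396) and, inversely, the intron control mean (r = -0.90), and Col4a2 the intron control mean (r = -0.85). These 3 relations did not pass by Spearman rho, with adjusted exact permutation p of 0.0732, 0.0717 and 0.071. Without the 2 farthest arrays the values were 0.79, -0.72 and -0.61. Over the 7 arrays of low intron control signal they were 0.73, -0.61 and -0.64, with exact permutation p of 0.0556, 0.250 and 0.188. Col18a1 was the only other collagen with an adjusted exact permutation p of at most 0.05 for the high GC rows (r = 0.78), and Col5a1, Col6a2 and Col14a1 were the others for the intron controls (r = -0.85, -0.89 and -0.76). For these 4 relations rho passed as well, each with an adjusted exact permutation p of 0.0169. Over the 42 collagens the median r was 0.55 with the high GC rows and -0.54 with the intron controls, against 0.19 and -0.18 over all clusters. Both sets of control probes went together (r = -0.88), and the stellate mean went with the intron controls too (r = -0.74), so their parts cannot be told apart here.

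**Figure D5:**
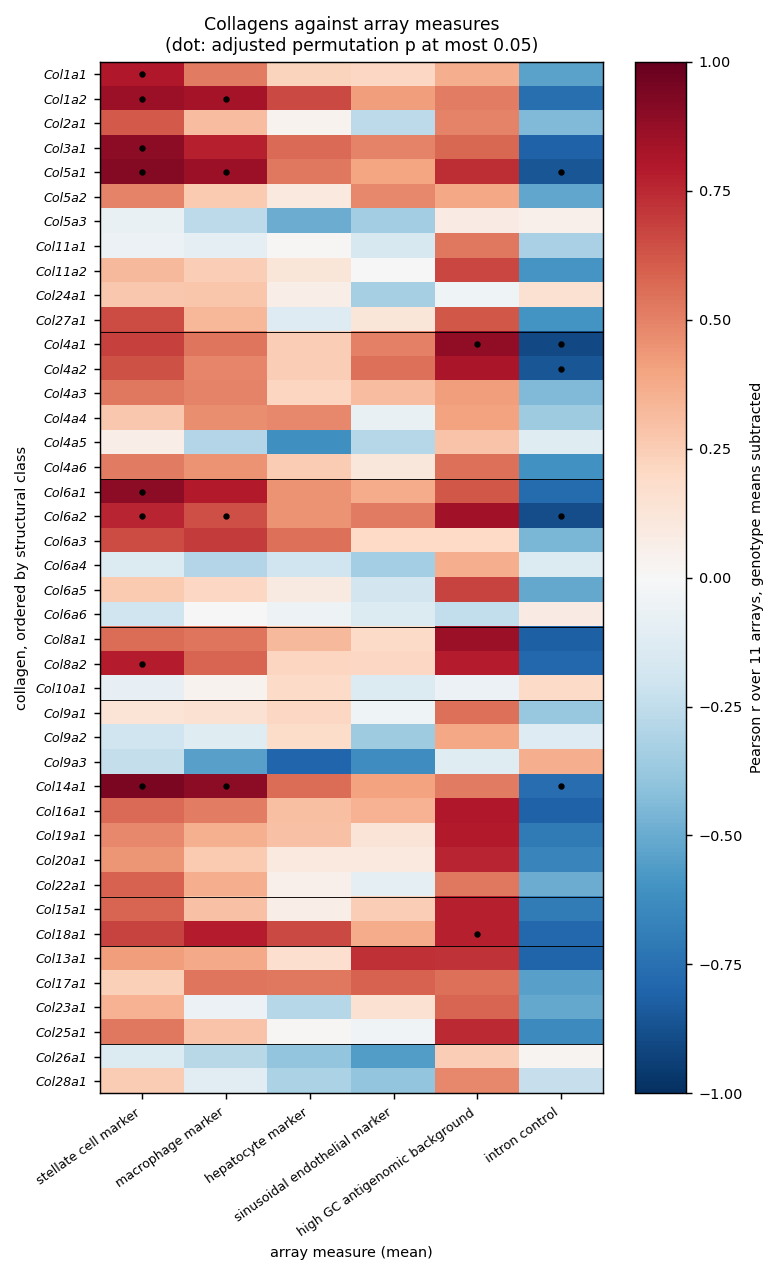
Pearson r between each of the 42 collagens (rows) and 6 measures of an array (columns) over 11 arrays with genotype means subtracted, red positive and blue negative. Dots mark an adjusted exact permutation p of at most 0.05, which 8 collagens have for the stellate mean, 4 for the macrophage mean, 0 for the hepatocyte and endothelial means, 2 for the high GC background and 5 for the intron controls.

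Genes that make, process, bind and break down collagen were listed by role, and 63 of 70 were measured. The difference was positive for 46 and negative for 17, with a median of 0.10, where the collagens themselves had -0.11 and all clusters -0.02. The study's rule was met by 2 as higher and 0 as lower, against 0.671% and 0.356% of all clusters. An unadjusted limma p of 0.05 was reached by 3 as higher and 2 as lower, against 2.61% and 3.78% of all clusters. An adjusted limma p of 0.05 was reached by 0, and by 0% of all clusters. Of the 63 genes, 32 passed the brightest background row in no array, against 15023 of the 22206 clusters. Among these 32 were Pcolce2, P4ha3, Bmp1, Ddr2 and Lair1.

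The enzymes that hydroxylate and glycosylate the new chains had 8 of 13 above 0 (median 0.06). P4ha3, a prolyl hydroxylase subunit, ran from 5.68 to 6.32 in wild type and read 5.71, 5.49, 5.21, 5.80 and 5.87 in knockout, a difference of -0.39 (SE 0.15, exact permutation p = 0.0346). The galactosyltransferase Colgalt2 differed by 0.38 (SE 0.23). The chaperones and export factors had 8 of 9 above 0 (median 0.14). Mia2 (0.31, SE 0.22) and Mia3 (0.30, SE 0.25), which load bulky procollagen at the exit sites of the endoplasmic reticulum, had the smallest p there, and neither passed.

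Propeptide processing and crosslinking genes had 8 of 13 above 0 (median 0.10) and held the largest difference of the pathway. Pcolce2, an enhancer of the protease that trims procollagen, ran from 4.89 to 6.45 in wild type with a median of 5.38 and read 6.42, 8.01, 6.16, 5.74 and 6.93 in knockout. Each of the 5 knockout arrays exceeded the mean of the wild type arrays, 5.50 ± 0.54 (SD, n = 6), while wild type 5 overlapped them. It was 2.22-fold higher in knockout, a log2 difference of 1.15 (SE 0.36), where the exact permutation p was 0.026 and the adjusted limma p 0.765. Pcolce2 passed the brightest background row in no array, so this difference was measured on a weak signal. It met the study's rule in 23 of 24 alternative fits, and with the macrophage mean as a covariate the difference was 0.14. Bmp1, that protease, lay the other way at -0.29 (SE 0.12, exact permutation p = 0.0238).

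Collagen receptors had 6 of 9 above 0 (median 0.05). Ddr2, a receptor kinase for fibrillar collagen found on stellate cells, ran from 6.35 to 7.0 in wild type and read 6.70, 7.30, 6.64, 7.60 and 7.37 in knockout, 1.42-fold higher at 0.50 (SE 0.19, exact permutation p = 0.0455). Lair1, an inhibitory collagen receptor of immune cells, differed by 0.78 (SE 0.37) but lay above the antigenomic mean in only 4 of 11 arrays. Lair1 did not meet the study's rule, met it in 10 of 23 alternatives, ran from 0.43 (without knockout 2) to 1.05 (without knockout 3) and turned to -0.19 with the macrophage mean as a covariate. Of the breakdown genes 7 of 9 lay above 0 (median 0.08). The collagenase Mmp13 ran from 5.90 to 8.02 and read 7.95, 7.27, 8.40, 8.68 and 7.57 in knockout, 1.73-fold higher at 0.79 (SE 0.34, exact permutation p = 0.0693). Its call by the study's rule was lost without wild type 2 (0.54) or 4 (0.78), without knockout 1 (0.80), 3 (0.69) or 4 (0.62), with the hepatocyte mean as a covariate (0.84) and without the 4 arrays of high intron control signal (0.50). The inhibitor Timp3 differed by 0.17 (SE 0.14). Of the proteins that bind fibrils 9 of 10 lay above 0 (median 0.18), with the smallest p for Thbs1 (0.66, SE 0.41) and Postn (0.49, SE 0.32), which did not pass.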

How the data were processed

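Total RNA (100 ng, Trizol, biotin-labelled whole-transcript target, per the labels' protocols) was hybridised to 11 Clariom S arrays. Affymetrix Expression Console with RMA was the authors' software, per the submitters' processing notes. RMA equalises the distributions of the arrays, which removes shifts shared by most genes. The deposited values are log2 levels with 2 decimals. The cell isolation, the genome build and any scan dates are not given in the sources used here. Control rows (6640) were left out of the 22206 tested clusters.

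The genotype comparison used limma 3.58.1 under R 4.3.3 (lmFit, eBayes, genotype only, Benjamini-Hochberg over all clusters). The study's threshold (fold 1.5, unadjusted p 0.05) names no test, so it was applied to this fit. Single genes also had a two-sided exact permutation test over 462 splits (smallest p 0.0022), and relations across arrays one over 86400 permutations within genotypes. The fit and permutations were tested on simulated data. The members and gene lists were chosen with earlier results of these data known. Described were 14 set collagens, the 6 of smallest p in each direction, pathway genes meeting the study's rule and the 2 of smallest p in each role. Alternatives are given in the closing section. The split by intron control signal and the GC covariate were chosen after seeing the data.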

Additional observations from a re-analysis of the deposited data

Results flagged for a closer look

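Among 94 groups of array values tested for a lone extreme value (each named collagen, pathway gene and array measure in each genotype), 1 stood apart. Col6a3, the alpha 3 chain of type VI collagen, read 7.92 in wild type 5, while the other wild type arrays lay between 6.90 and 7.14. Chance gives about 1 such value in 20 groups. Without that array the genotype difference of Col6a3 was 0.14 in place of -0.01, and neither passed the limma test.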

How the results depend on the processing

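The number of collagens meeting the study's rule stayed at 0 except with the hepatocyte mean (3) or intron control mean (1, Col3a1) as covariate and at a fold of 1.2 (2). Those at an unadjusted limma p of 0.05 (3) numbered 0 to 7 with 1 array left out, 1 with median centring, array weights or dim clusters filtered, and 6, 7 and 5 with the stellate, macrophage and hepatocyte means as covariates, where 12.6%, 16.6% and 8.74% of all clusters did. All clusters meeting the rule (228) numbered 171 to 314 with 1 array left out, 610, 1730 and 573 with those covariates, 359 without the 4 arrays of high intron control signal, 1247 at a fold of 1.2 and 60 at 2. No collagen passed an adjusted limma p in any of 24 alternatives.

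Same-numbered arrays of the genotypes correlated at 0.006, 0.389, 0.079, -0.321 and 0.025. Differently numbered arrays were not compared, and the labels do not say whether the numbers mark pairs. With the replicate block 4 collagens reached an unadjusted limma p of 0.05 (Col15a1, Col4a6, Col11a2 and Col22a1, not Col10a1 or Col28a1), against 7.57% of all clusters, and Col1a1 turned to -0.006.

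Some differences turned sign. Col1a1 stood at -0.074 with repeated quantile normalization, -0.034 with array weights and -0.076 without the 4 arrays, where Col5a2 (-0.14) and Col6a2 (-0.058) turned too. With median centring Col6a1 (0.0035) and Col6a3 (0.025) turned, with the high GC covariate Col6a1 (0.0039), with the intron covariate Col6a3 (0.0029) and with the hepatocyte covariate Col6a1 (0.18), Col6a3 (0.25) and Col18a1 (0.19). With the stellate covariate Col1a1 (-0.13), Col1a2 (-0.049), Col3a1 (-0.21), Col4a1 (-0.014), Col4a2 (-0.015), Col5a1 (-0.21), Col5a2 (-0.067), Col6a2 (-0.13) and Col14a1 (-0.19) turned. With the macrophage covariate Col1a1 (-0.16), Col1a2 (-0.30), Col3a1 (-0.64), Col4a1 (-0.073), Col4a2 (-0.072), Col4a3 (-0.027), Col5a1 (-0.52), Col5a2 (-0.062), Col6a2 (-0.25), Col14a1 (-0.50), Lair1 (-0.19) and Timp3 (-0.033) turned. With 1 array left out Col1a1 ran from -0.056 to 0.080, Col5a2 from -0.036 to 0.13, Col6a1 from -0.17 to 0.066, Col6a2 from -0.022 to 0.21 and Col6a3 from -0.078 to 0.14. The cause was not tested. In the 479 alternative values of the named collagens, 49 turned sign and 4 newly met the study's rule. The number of arrays and a signal near background limit the precision.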
